A study of Mus musculus with 18 samples.

Results

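The 10 genes described here belong to the leukaemia inhibitory factor (LIF) receptor and JAK-STAT3 pathway, and they were followed across mouse fibroblasts, induced pluripotent stem (iPS) cells and embryonic stem (ES) cells. They were chosen by symbol from the platform annotation, as the ligand Lif, the receptor subunits Lifr and Il6st, the kinases Jak1 and Jak2, the transcription factor Stat3, the feedback inhibitor Socs3, and the genes Pim1, Pim3 and Gbx2, which STAT3 activates in mouse ES cells. All 10 were found among the 19937 genes with a probe set, and a gene with several probe sets was read by the one with the highest mean over all arrays. Of the 10, only Socs3 had more than 1 probe set.

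Expression was measured as log2 values per probe set on 18 arrays, 3 for each of 6 groups. The iPS lines came from CD1 mouse embryonic fibroblasts (MEFs) that received retroviral pMX-Oct4, pMX-Klf4 and pMX-Sox2, and each is a single named line. The groups were EOS3F-24 partial iPS cells after conversion with the 2i cocktail, a MEK inhibitor at 2 μM and a GSK inhibitor at 12 μM in ES medium with LIF, EOS3F-24 partial iPS cells without the cocktail, the full iPS lines EOS3F-28 and EOS3F-29, J1 ES cells, and low-passage primary CD1 MEFs. The iPS and J1 cells shared arrested feeder cells and LIF, with puromycin selection at 1 μg/mL for the 3 iPS lines. The labels do not say whether puromycin was kept during the 2i conversion, so the 2i-converted and partial iPS cells may differ in it too. For the MEFs the labels name serum medium and neither feeders nor LIF, so in every comparison with MEFs the cell type, the feeders and the LIF cannot be told apart. J1 is a single ES line that was not made from the CD1 fibroblasts. In every comparison of iPS with J1 cells, the origin of the line and the cell class cannot be told apart. The labels do not say whether the 3 arrays of a group came from separate cultures, so p-values reflect the spread among arrays alone, possibly a technical one, and the number of arrays limits their precision.

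LIF binds the LIF receptor, which pairs with gp130, the product of Il6st and the subunit shared by the interleukin-6 cytokine family. JAK kinases bound to the receptor then phosphorylate STAT3, which enters the nucleus and activates its target genes. In mouse ES cells this pathway supports self-renewal, and SOCS3 acts back on gp130 and the JAKs to limit it. The arrays read RNA only, so the phosphorylation that carries the signal was not measured.

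The array medians ran from 3.92 to 4.11, and replicate arrays correlated at 0.971 to 0.987. The 10 pluripotency markers averaged 8.64 to 8.95 in the 2i-converted arrays, 5.24 to 5.78 in the partial iPS arrays, 7.83 to 8.42 in the full iPS arrays, 8.71 to 8.98 in J1 and 3.55 to 3.63 in MEFs. Of the 10, 9 were lower and 1 higher in partial iPS than in J1 cells (limma, adjusted p under 0.05), where 22.9% of all genes were called. The 1 higher was Pou5f1 (Oct4, an introduced factor), at a mean of 10.96 in partial iPS, 9.64 in 2i-converted and 9.53 in J1 cells. Whether its probe set also reads the retroviral copy was not tested. The 14 measured fibroblast and feeder markers averaged 6.80 to 8.92 in the 15 feeder-grown arrays, against 9.45 to 9.79 in MEFs. Within each of the 5 feeder-grown groups the array with replicate number 1 read these fibroblast markers highest (8.06 in 2i-converted, 8.54 in partial, 8.25 in EOS3F-28, 8.92 in EOS3F-29 and 7.98 in J1). In such bulk samples, fewer cells of a type and less RNA per cell cannot be told apart.

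The 10 genes fell into those lowest in MEFs and those highest in MEFs. Lif, Lifr, Socs3, Pim1, Pim3 and Gbx2 had their lowest group mean in MEFs. The shared subunit Il6st, the kinases Jak1 and Jak2, and Stat3 itself had their highest there. The ranges between the lowest and highest group means were 0.96 for Lif and 2.30 for Il6st at the extremes, with pooled SDs within groups of 0.13 (Pim3) to 0.39 (Lif).

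**Figure D1:**
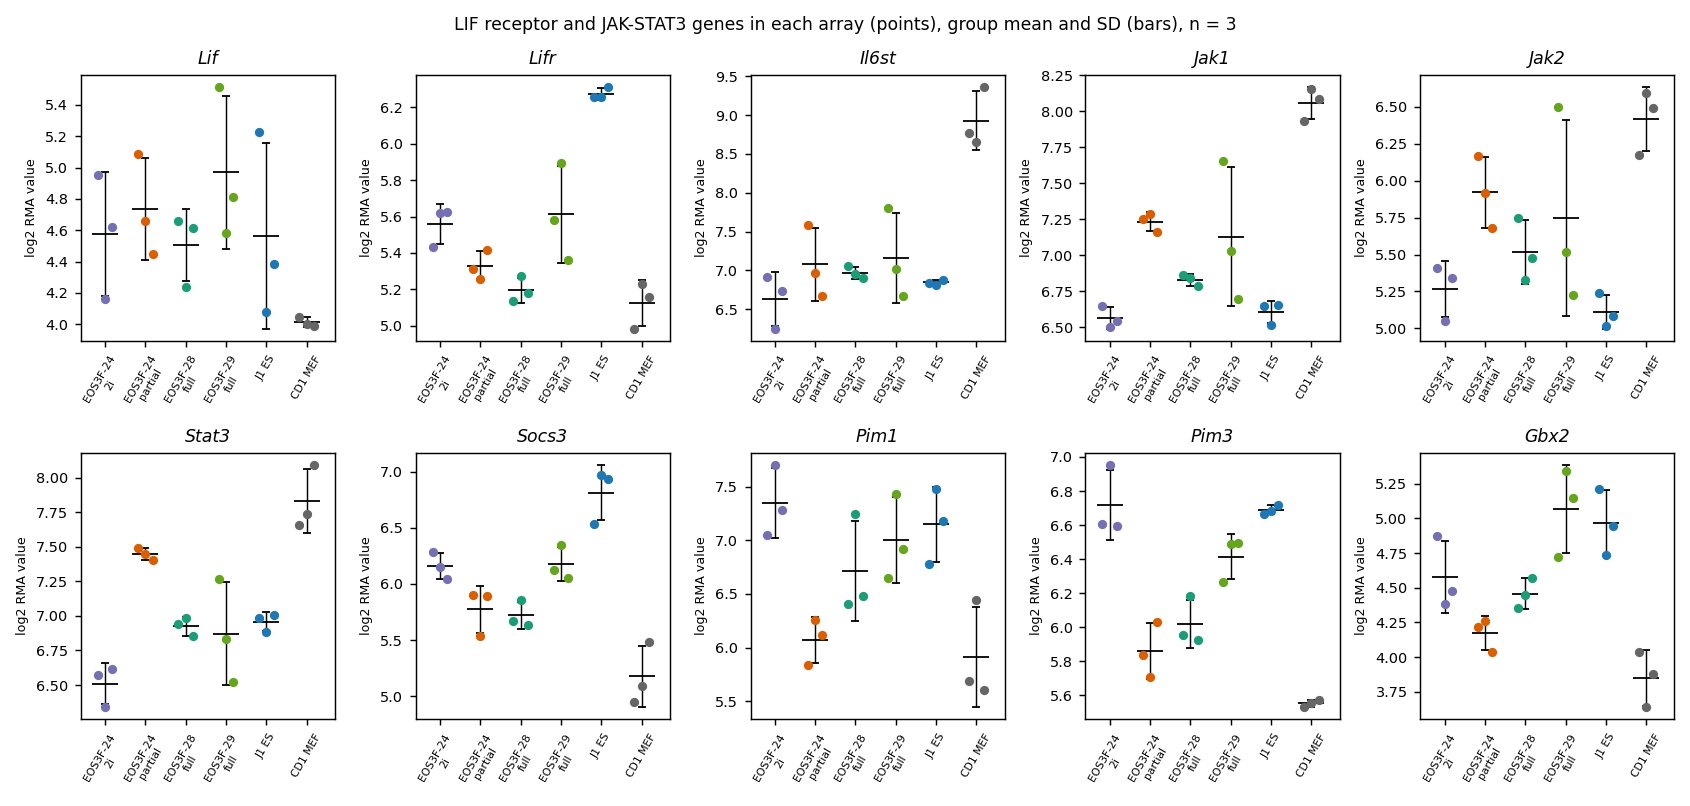
Log2 RMA value (vertical axis) of each of the 10 genes in each array (points) by group (horizontal axis), with the group mean and SD as bars (n = 3). Il6st, Jak1, Jak2 and Stat3 had their highest group mean in MEFs, and the other genes had their lowest there.

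Lif, the ligand, read 4.95, 4.16 and 4.62 in 2i-converted cells, 5.09, 4.66 and 4.45 in partial iPS cells, 4.66, 4.24 and 4.61 in EOS3F-28, 5.52, 4.58 and 4.81 in EOS3F-29, and 5.23, 4.08 and 4.39 in J1, against 4.05, 4.003 and 3.99 in MEFs. All MEF arrays lay below all others, by least against the replicate 2 arrays of J1 and 2i-converted cells, and in every feeder-grown group the replicate 1 array was the highest. No neighbours in the order of the Lif group means differed (adjusted p of 0.208 or more by limma).

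Lifr, which encodes the LIF receptor, read 5.43, 5.62 and 5.63 in 2i-converted cells, 5.31, 5.26 and 5.42 in partial iPS cells, 5.14, 5.27 and 5.18 in EOS3F-28, 5.58, 5.89 and 5.36 in EOS3F-29, and 6.25, 6.26 and 6.31 in J1, against 4.98, 5.23 and 5.16 in MEFs. The J1 arrays lay above every other array, while the EOS3F-28 and MEF arrays overlapped. In the order J1, EOS3F-29, 2i-converted, partial iPS, EOS3F-28 and MEF, only the step between EOS3F-29 and J1 was called (limma adjusted p = 0.00541).

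Il6st, which encodes gp130, read 6.91, 6.25 and 6.74 in 2i-converted cells, 7.59, 6.96 and 6.67 in partial iPS cells, 7.05, 6.96 and 6.90 in EOS3F-28, 7.80, 7.01 and 6.67 in EOS3F-29, and 6.84, 6.81 and 6.87 in J1, against 8.77, 8.66 and 9.37 in MEFs. No feeder-grown array reached the MEF range, and among the feeder-grown groups only J1 and EOS3F-28 did not overlap. Only the step between EOS3F-29, the next highest, and MEFs was called (limma adjusted p = 6.41e-05).

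Jak1 and Jak2 encode the kinases at the receptor. Jak1 read 6.65, 6.50 and 6.54 in 2i-converted cells, 7.25, 7.29 and 7.16 in partial iPS cells, 6.86, 6.85 and 6.79 in EOS3F-28, 7.65, 7.03 and 6.70 in EOS3F-29, and 6.65, 6.52 and 6.65 in J1, against 7.93, 8.15 and 8.09 in MEFs. The 2i-converted and J1 arrays covered the same range below the partial iPS arrays, which lay below MEFs, and the step between partial iPS cells and MEFs was the only called one (limma adjusted p = 0.000898). Jak2 read 5.41, 5.05 and 5.34 in 2i-converted cells, 6.17, 5.92 and 5.68 in partial iPS cells, 5.75, 5.32 and 5.47 in EOS3F-28, 6.50, 5.52 and 5.23 in EOS3F-29, and 5.24, 5.01 and 5.08 in J1, against 6.17, 6.59 and 6.49 in MEFs. Its EOS3F-29 replicate 1 array lay within the MEF range and the partial iPS replicate 1 array at its lower end, and no neighbours in its order differed (adjusted p of 0.145 or more by limma).

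Stat3, the transcription factor of the pathway, read 6.57, 6.34 and 6.62 in 2i-converted cells, 7.49, 7.45 and 7.40 in partial iPS cells, 6.94, 6.98 and 6.85 in EOS3F-28, 7.26, 6.83 and 6.52 in EOS3F-29, and 6.98, 6.88 and 7.01 in J1, against 7.66, 7.74 and 8.09 in MEFs. The partial iPS arrays lay between MEFs and every other feeder-grown array. Only the step between partial iPS and J1 cells was called (limma adjusted p = 0.0249).

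Socs3 encodes the feedback inhibitor and is itself a STAT3 target. STAT3 binds a 9-base sequence, TTCNNNGAA, which reads the same on both strands. Among RefSeq promoter windows of GRCm38.p6, reaching 250 bases before to 50 bases after each gene start, all 10 genes matched with 12 windows. The motif was found in 1 of these, that of Socs3, and in 8.30% of all 32851 windows. The 250 bases before the Socs3 start (chr11:117969367-117969616 of GRCm38.p6, minus strand) are shown because this is the window among the 12 that holds the motif, whose letters are in capitals.
Socs3: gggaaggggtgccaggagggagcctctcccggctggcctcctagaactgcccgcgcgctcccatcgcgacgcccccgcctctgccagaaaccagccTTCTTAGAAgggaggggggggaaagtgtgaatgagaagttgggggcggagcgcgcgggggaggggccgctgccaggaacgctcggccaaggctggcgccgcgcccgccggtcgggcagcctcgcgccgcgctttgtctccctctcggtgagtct
The first base of the motif lies 154 bases before the start. Such a match is a description of the letters in this window, and binding was not measured here.

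Socs3 read 6.28, 6.15 and 6.05 in 2i-converted cells, 5.90, 5.53 and 5.89 in partial iPS cells, 5.67, 5.86 and 5.64 in EOS3F-28, 6.13, 6.34 and 6.05 in EOS3F-29, and 6.53, 6.97 and 6.94 in J1, against 4.95, 5.10 and 5.48 in MEFs. The J1 arrays lay above all others and the MEF arrays below all others. The step between EOS3F-29 and J1 (limma adjusted p = 0.0375) and the step between EOS3F-28 and MEFs (0.0102) were called, and the steps within the iPS groups were not. The second Socs3 probe set averaged 4.21 in 2i-converted cells, 4.31 in partial iPS cells, 4.13 in EOS3F-28, 4.48 in EOS3F-29, 4.76 in J1 and 4.11 in MEFs. It too was highest in J1, but it was lower in 2i-converted than in partial iPS cells, where the first was higher.

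Pim1 and Pim3 encode serine/threonine kinases that promote survival and ES cell self-renewal. Pim1 read 7.05, 7.70 and 7.28 in 2i-converted cells, 5.84, 6.26 and 6.12 in partial iPS cells, 6.40, 7.25 and 6.49 in EOS3F-28, 6.65, 7.43 and 6.92 in EOS3F-29, and 6.78, 7.48 and 7.18 in J1, against 5.68, 6.45 and 5.60 in MEFs. Among these groups the partial iPS arrays overlapped only MEFs, within whose range they lay. Pim3 read 6.61, 6.95 and 6.59 in 2i-converted cells, 5.84, 5.71 and 6.03 in partial iPS cells, 5.95, 6.18 and 5.93 in EOS3F-28, 6.26, 6.49 and 6.49 in EOS3F-29, and 6.67, 6.69 and 6.72 in J1, against 5.53, 5.56 and 5.57 in MEFs. Every MEF array lay below every other array, and EOS3F-28 overlapped the partial iPS arrays. In the orders of Pim1 and Pim3 no neighbours differed (adjusted p of 0.129 or more for Pim1 and 0.0658 or more for Pim3, by limma).

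Gbx2, a homeobox transcription factor that sustains mouse ES cells downstream of STAT3, read 4.87, 4.38 and 4.48 in 2i-converted cells, 4.22, 4.26 and 4.03 in partial iPS cells, 4.35, 4.45 and 4.57 in EOS3F-28, 4.72, 5.34 and 5.15 in EOS3F-29, and 5.21, 4.74 and 4.95 in J1, against 4.03, 3.64 and 3.87 in MEFs. The EOS3F-29 arrays lay above all EOS3F-28 arrays, and the lowest partial iPS array and the highest MEF array both read 4.03. No neighbours in its order differed (adjusted p of 0.188 or more by limma). The means of Gbx2 and Lif over all arrays, 4.51 and 4.56, were close to the median gene level of 4.37, and the deposited values carry no call of detection.

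Against MEFs, the full iPS, 2i-converted and J1 cells had less Il6st, Jak1, Jak2 and Stat3 RNA and more of the targets Socs3, Pim1, Pim3 and Gbx2. In full iPS cells, the mean of both lines, all 10 genes were called against MEFs, 6 higher and 4 lower, where 35.0% of all genes were called (limma, adjusted p under 0.05 over all genes, here and below). Differences are between means of log2 values. Socs3 was higher by 0.77, Pim1 by 0.94, Pim3 by 0.66 and Gbx2 by 0.91, while Il6st fell by 1.86 (SE 0.23), Jak1 by 1.08, Jak2 by 0.79 and Stat3 by 0.93 on the log2 scale. Lif and Lifr were higher by 0.72 and 0.28. The Lif call was lost without any 1 of the MEF arrays (adjusted p of 0.0607, 0.0647 and 0.0697 without replicate 1, 2 and 3) and for EOS3F-28 taken alone (0.208). The Lifr call was lost without MEF replicate 1 (0.202) or 3 (0.0757), EOS3F-28 replicate 2 (0.0749) or 3 (0.0565), or EOS3F-29 replicate 2 (0.0881), and EOS3F-28 alone differed from MEFs by 0.07 (0.720). Housekeeping centring (0.147), trended robust eBayes (0.0617) and leaving out the feeder-grown replicate 1 arrays (0.0648) also lost the Lifr call. So did a fit of only the arrays compared, without (0.105) and with (0.0675) the replicate block.

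In 2i-converted cells against MEFs 9 of the 10 genes were called, 5 higher and 4 lower, against 37.5% of all genes. Pim1 was higher by 1.44, or 2.71-fold (adjusted p = 0.000351), Pim3 by 1.16, Socs3 by 0.98, Gbx2 by 0.73 and Lifr by 0.44. Il6st was 4.92-fold lower (log2 difference -2.30, SE 0.26, adjusted p = 2.46e-06), Jak1 2.82-fold, Stat3 2.49-fold and Jak2 2.22-fold lower. Lif, at 4.58 ± 0.40 in 2i-converted cells and 4.01 ± 0.03 in MEFs (SD, n = 3 each), was not called (0.122). With arrays centred on housekeeping genes the Lifr (0.322) and Gbx2 (0.0649) calls were lost, leaving 3 genes higher and 4 lower. The 8 housekeeping genes themselves averaged 8.13 in 2i-converted cells and 7.85 in MEFs. Of these 8, 3 were called higher and 1 lower in the main fit, so the reference of that centring differed between the groups.

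J1 cells gave the same division, with 9 genes called, 5 higher and 4 lower, against 38.0% of all genes. Socs3 was 3.11-fold higher in J1 than in MEFs (log2 difference 1.64, SE 0.15, adjusted p = 2.48e-07) and Lifr 2.22-fold higher (1.15, SE 0.12, 7.45e-07). Pim1, Pim3 and Gbx2 were higher by 1.24, 1.14 and 1.12. Il6st fell by 2.09, Jak1 by 1.45, Jak2 by 1.31 and Stat3 by 0.87. Lif was not called (0.128), and was called without J1 replicate 2 (0.0422).

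Partial iPS cells had 3 of the 10 genes called against MEFs, where 23.7% of all genes were called, a share close to the genes' own. Il6st fell by 1.86 (SE 0.26, adjusted p = 4.71e-05) and Jak1 by 0.83 (0.000898), and Socs3 was higher by 0.60 (0.00703), a call lost with housekeeping centring (0.0776), which left 0 genes higher and 4 lower. Stat3 differed from MEFs by -0.38 (95% interval -0.70 to -0.07, adjusted p = 0.0759), Pim1 by 0.16 (-0.41 to 0.73, 0.740) and Gbx2 by 0.32 (-0.03 to 0.67, 0.188). Pim3 differed by 0.31 (0.0658), and was called without partial iPS replicate 2 (0.0477). Lif, Jak2 and Lifr were not called either, at 0.72 (0.0677), -0.50 (0.145) and 0.21 (0.239). Stat3 was called with cyclic loess (0.00897) and housekeeping centring (0.0110), and Jak2 with housekeeping centring (0.0267). A fit of only the arrays compared called Jak2 (0.0423) and Lif (0.00799), and with the replicate block Lif was called (0.0102). Without the feeder-grown replicate 1 arrays, Jak2 (0.00647) and Lif (0.0208) were called. The 4 comparisons with MEFs share the MEF arrays. The median difference of the 10 genes was 0.18 in partial iPS, 0.47 in full iPS, 0.50 in 2i-converted and 0.83 in J1 cells, against 0.04, 0.03, 0.03 and 0.06 over all genes.

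**Figure D2:**
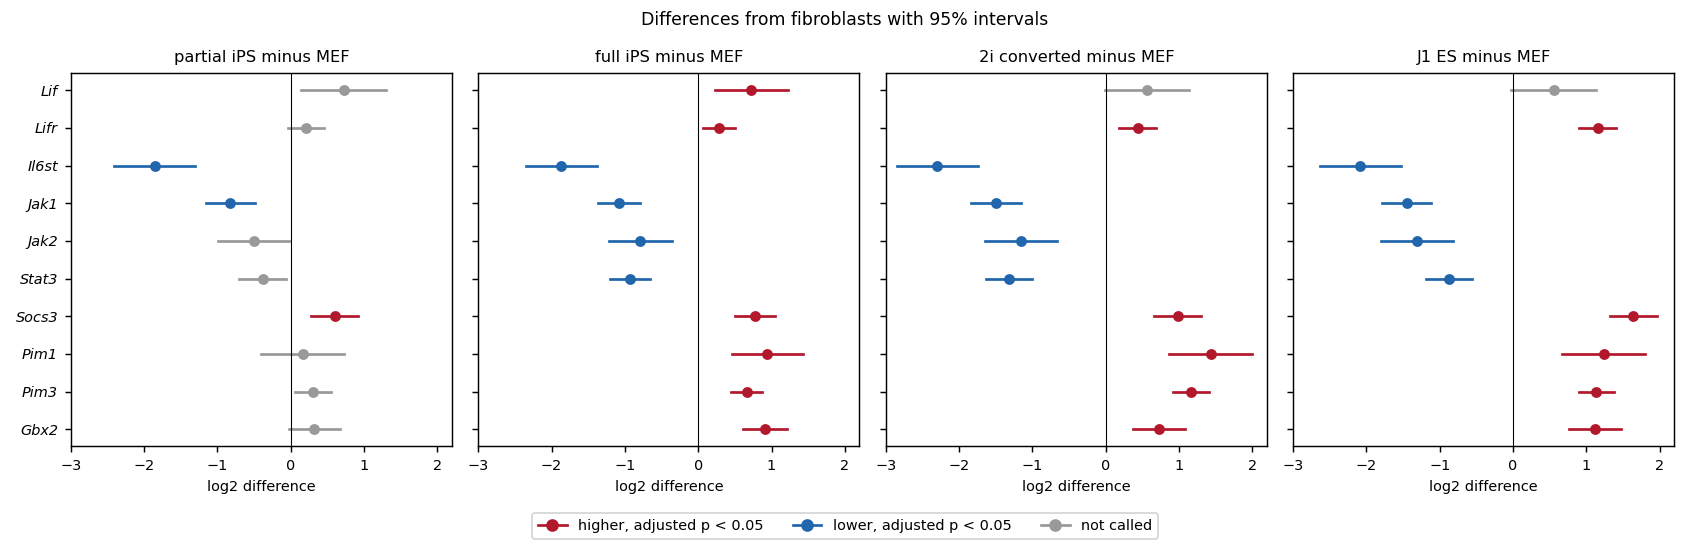
Log2 difference from MEFs (horizontal axis) with its 95% interval for each of the 10 genes (vertical axis) in each feeder-grown class, coloured by call. Il6st and Jak1 lay below 0 and Socs3 above 0 in every panel, and Pim1 and Gbx2 were called in every panel but that of partial iPS cells.

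The fibroblast markers moved in the same direction as Il6st, Jak1, Jak2 and Stat3 in these comparisons. Of 14, 11 were lower in partial iPS, full iPS and 2i-converted cells and 12 in J1, with 1 marker, the matrix gene Dcn, higher in each. Macrophage markers averaged 3.67 to 3.94 in the 6 full iPS arrays and 3.84 to 4.57 in MEFs, near the level of the median gene. The part of fibroblast RNA in the differences from MEFs was not tested.

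The conversion of partial iPS cells with the 2i cocktail was followed by higher Pim kinase RNA and lower Jak1 and Stat3 RNA. Pim1 was 2.42-fold higher in 2i-converted than in partial iPS cells (log2 difference 1.28, SE 0.27, adjusted p = 0.00191) and Pim3 1.81-fold higher (0.86, SE 0.12, 3.04e-05). Stat3 was 1.91-fold lower (-0.94, SE 0.15, adjusted p = 0.000169) and Jak1 1.59-fold lower (-0.67, SE 0.16, 0.00492). These 4 were the genes called among the 10, where 22.4% of all genes were called. The arrays of the groups did not overlap for these genes, which were among 8 of the 10 without overlap, against 37.8% of all genes.

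The other 6 genes were not called between 2i-converted and partial iPS cells. Jak2 differed by -0.65 (adjusted p = 0.0537), Il6st by -0.44 (0.272), Gbx2 by 0.41 (0.0946) and Socs3 by 0.38 (0.0822), and Lifr by 0.23 (0.192). Lif differed by -0.16 (95% interval -0.73 to 0.42, 0.776). With the replicate number as a block, a pairing that the labels do not state, Il6st (0.0365), Jak2 (0.00128), Socs3 (0.0279) and Gbx2 (0.0248) were also called, 8 genes in all. The share of all genes called in that fit was not counted. Without partial iPS replicate 3, Jak2 was called as well (0.0481). The split of 2 genes higher and 2 lower became 4 and 2 with cyclic loess and 2 and 3 with housekeeping centring. The 14 fibroblast markers averaged 6.80 to 8.06 in 2i-converted and 7.19 to 8.54 in partial iPS arrays. Their median difference was -0.37, with none called by limma and 0 at an unadjusted p under 0.05. With these markers as a covariate the calls for Pim1, Pim3, Stat3 and Jak1 held. Jak2 was called too (-0.49, limma adjusted p = 0.0153), in a fit without the replicate number. The replicate 1 arrays had the highest markers in every feeder-grown group, so that fit cannot tell fibroblast RNA from the replicate set. The part of fibroblast RNA in these differences was not tested.

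Partial iPS cells stood apart from J1 cells in most of the pathway. Of the 10 genes 8 were called, 3 higher and 5 lower, against 22.9% of all genes. Jak2 was higher in partial iPS than in J1 cells by 0.81 (SE 0.23, adjusted p = 0.0171), Jak1 by 0.63 (0.00768) and Stat3 by 0.49 (0.0249). Pim1 was 2.11-fold lower (0.00671) and Socs3 2.05-fold lower (6.56e-05), Lifr 1.93-fold lower (1.23e-05), Pim3 1.78-fold lower (4.10e-05) and Gbx2 1.73-fold lower (0.00178). The Stat3 call was lost with housekeeping centring (0.0767) and without J1 replicate 2 (0.0831) or 3 (0.0524) or partial iPS replicate 1 (0.0710), 2 (0.0667) or 3 (0.05001). The Jak2 call was lost without J1 replicate 2 (0.0597) or 3 (0.0538) or partial iPS replicate 1 (0.0774).

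Partial iPS cells differed from full iPS cells in 4 of the 10 genes, against 18.6% of all genes. Stat3 was higher by 0.55 (SE 0.13, adjusted p = 0.00580), and Pim1 differed by -0.78 (0.0240), Gbx2 and Pim3 by -0.59 (0.00691) and -0.36 (0.0174). Il6st and Lif differed by 0.01 (95% interval -0.47 to 0.49) and 0.00 (-0.50 to 0.50), so neither was separated in either direction. When EOS3F-28 alone stood for the full lines, the Pim1 (0.129), Gbx2 (0.300) and Pim3 (0.425) calls were lost, and that for Stat3 held. Pim1 was also lost without partial iPS replicate 1 (0.117) or 3 (0.0663) or replicate 2 of EOS3F-28 (0.0520) or EOS3F-29 (0.0523), Pim3 without partial iPS replicate 1 (0.0616) or 2 (0.136), and Gbx2 without partial iPS replicate 3 (0.0501), while Jak1 (0.00514) and Jak2 (0.0178) were gained without EOS3F-29 replicate 1.

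**Figure D3:**
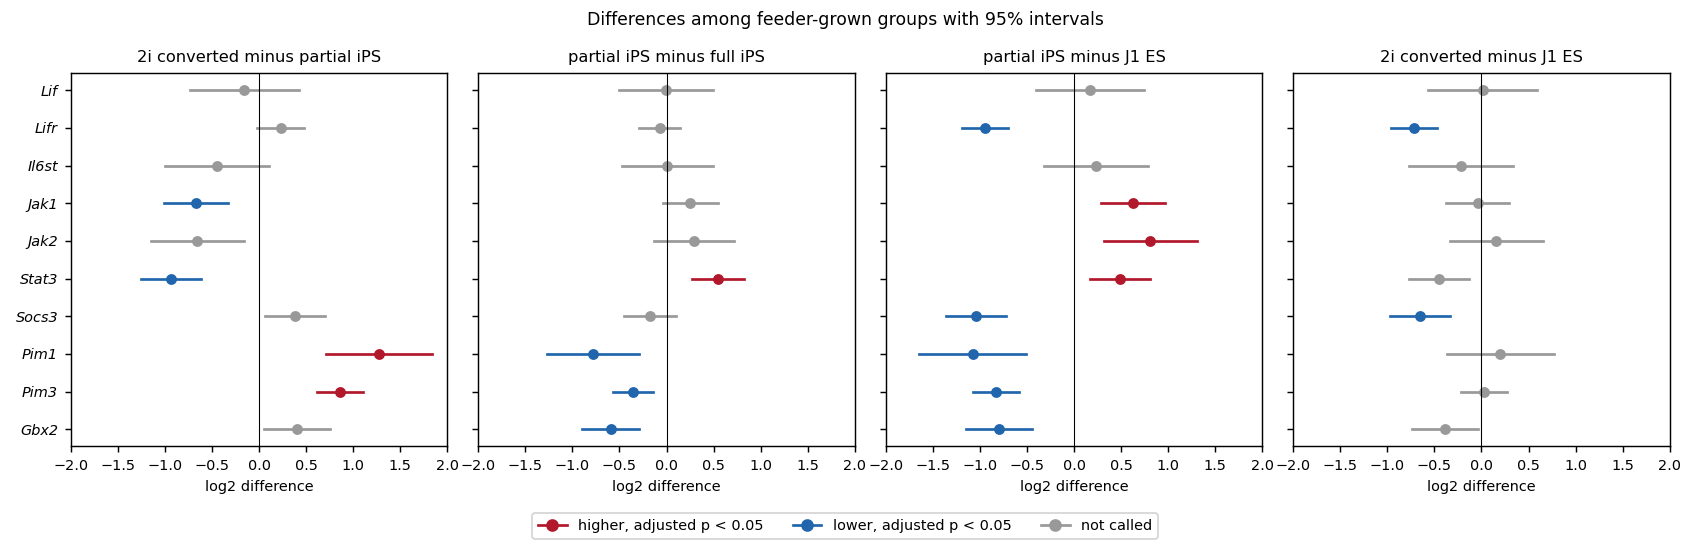
Log2 difference (horizontal axis) with its 95% interval for each of the 10 genes (vertical axis) in 4 comparisons among feeder-grown groups, coloured by call. Stat3 was higher in partial iPS cells than in full iPS and J1 cells and lower after 2i conversion, and Lifr and Socs3 were lower in 2i-converted than in J1 cells.

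Lifr and Socs3 were the genes called between 2i-converted and J1 cells, 2 of the 10 where 1.72% of all genes were called. Lifr was 1.64-fold lower in 2i-converted than in J1 cells (log2 difference -0.72, SE 0.12, adjusted p = 0.00328) and Socs3 1.57-fold lower (-0.65, SE 0.15, 0.0345). The arrays of the groups did not overlap for these genes, which were among 3 of the 10 without overlap, against 15.7% of all genes. Pim1 (0.20), Pim3 (0.03), Jak1 (-0.04) and Il6st (-0.21) were not called, with 95% intervals of -0.37 to 0.77, -0.22 to 0.27, -0.38 to 0.29 and -0.76 to 0.34. The Socs3 call was lost without 2i-converted replicate 2 (0.120) or 3 (0.166) or J1 replicate 2 (0.145) or 3 (0.175) and in a fit of these arrays alone (0.0916). With the replicate number as a block, Stat3 (0.0244) and Gbx2 (0.0458), both lower in 2i-converted cells, were called too.

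Lifr, Socs3 and Pim3 were lower in full iPS cells than in J1, 3 of the 10 against 4.76% of all genes. Socs3 differed by -0.87 (SE 0.13, adjusted p = 0.000869) and Lifr by -0.87 (SE 0.10, 7.36e-05). Pim3 differed by -0.47 (0.0106), a call lost without J1 replicate 3 (0.0728), for EOS3F-29 taken alone (0.302) and in a fit that leaves out all feeder-grown replicate 1 arrays (0.0946). Jak1 differed by 0.37 (0.152), and was called without EOS3F-29 replicate 3 (0.0233) and with cyclic loess (0.0253), so that 1 gene was higher and 3 lower. The 2i-converted cells themselves had 1 gene called against full iPS cells, Pim3, higher by 0.50 (SE 0.10, 0.00683), against 5.16% of all genes. That call was lost without 2i-converted replicate 2 (0.0862), with EOS3F-29 alone (0.222) and with housekeeping centring (0.101), which gave 0 genes higher and 3 lower, against 1 and 2 with cyclic loess. Jak1 (0.0141) and Stat3 (0.0251), lower in 2i-converted cells, were also called without EOS3F-29 replicate 3.

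The full lines were not separated by limma in any of the 10 genes, where 0.532% of all genes were called. At an unadjusted p under 0.05 by limma, 4 of the 10 passed, and the share of all genes passing that threshold was not counted. EOS3F-28 differed from EOS3F-29 by -0.61 in Gbx2 (adjusted p = 0.141), -0.42 in Lifr (0.157), -0.45 in Socs3 (0.251) and -0.39 in Pim3 (0.173). With the replicate number as a block Gbx2 was called (0.0223), as it was without EOS3F-29 replicate 1 (0.0400).

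Several of the genes moved with the fibroblast markers, or with the replicate number that goes with them, among arrays of the same group. Over the 15 feeder-grown arrays, with group means taken out, Lif rose by 0.56 (SE 0.08) per log2 unit of the mean of the 14 fibroblast markers (limma adjusted p = 2.62e-05), Il6st by 0.43 (0.00158) and Jak2 by 0.42 (0.000698), and Pim1 had a slope of -0.45 (0.000410). These 4 were the genes called among the 10, where 16.0% of all genes were called. Slopes of Lifr (-0.07), Socs3 (-0.05), Gbx2 (0.02), Pim3 (-0.13), Stat3 (0.16) and Jak1 (0.20) were not called. With the replicate number as a further term none of the 10 slopes was called by limma, where 0.0502% of all genes were called. At an unadjusted p under 0.05 there were 3, and the share of all genes passing that threshold was not counted. Lif (0.42, SE 0.25, limma adjusted p = 0.737), Il6st (0.87, 0.287), Jak2 (0.80, 0.275) and Pim1 (-0.27, 0.820) kept their sign with that term. That term was added after the slopes were seen, and since the replicate 1 arrays had the highest markers in every group, fibroblast RNA and replicate set can hardly be told apart here. In all 5 groups the array with the highest fibroblast markers had the highest Lif and Jak2 and the lowest Pim1. For Il6st it was the highest in 4 of 5. These ranks restate the slopes on the same arrays and add no separate support, and the share of all genes with such ranks was not counted. Lif was lowest of all in the MEFs themselves, at 3.99 to 4.05, where the markers were highest.

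**Figure D4:**
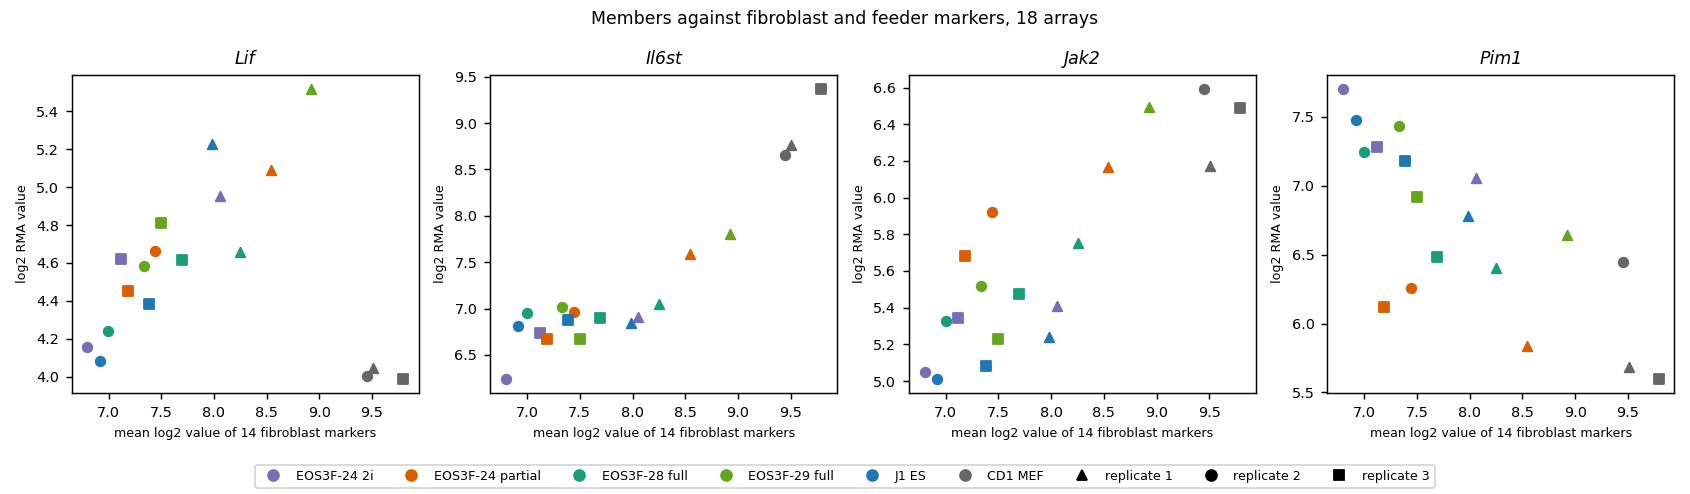
Log2 RMA value (vertical axis) of Lif, Il6st, Jak2 and Pim1 against the mean log2 value of the 14 fibroblast markers (horizontal axis) in all 18 arrays, with colour for the group and shape for the replicate number. Within feeder-grown groups the replicate 1 arrays (triangles) lie farthest right, and the MEF arrays lie farther right still, with the lowest Lif values.

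The rest of the pathway was read from 5 lists with 60 measured genes, some of which other signals also regulate. Among other interleukin-6 family cytokines and receptors, 0 of 10 were higher and 4 lower in 2i-converted than in partial iPS cells, against 22.4% of all genes called, with a list median of -0.20 against 0.00 over all genes. Osmr, the oncostatin M receptor, which also pairs with gp130, read 5.56, 4.28 and 4.95 in 2i-converted cells, against 7.03, 6.54 and 6.40 in partial iPS cells. The groups did not overlap, and Osmr fell by 1.73 (limma adjusted p = 0.00714), a call just lost without 2i-converted replicate 2 (0.0511). Clcf1 and Cntfr, a cytokine and the ciliary neurotrophic factor receptor, fell by 0.77 and 0.65, and Il6ra, the interleukin-6 receptor, by 0.53. In J1 cells 2 of the 10 were higher and 2 lower than in MEFs (1 and 3 with housekeeping centring), close to the 38.0% of all genes called, with Osmr at -2.87 (4.72e-05) and Il6ra at -0.17 (0.301). Clcf1 differed by -0.60 (0.0202), a call lost without MEF replicate 1 (0.0674) or J1 replicate 2 (0.0619) or 3 (0.0550).

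Other STAT genes went in different directions. Of 6 other JAK and STAT genes, 1 was higher and 3 lower in 2i-converted than in partial iPS cells, where 22.4% of all genes were called. Stat4 read 4.77, 5.20 and 5.19 in 2i-converted cells, against 3.50, 3.47 and 3.41 in partial iPS cells, and was 1.60 higher (limma adjusted p = 5.53e-05). Stat5a, a cytokine-activated factor like Stat3, read 4.74, 4.76 and 4.73 in 2i-converted cells, against 5.63, 5.87 and 5.98 in partial iPS cells. Stat6, Stat5a and Stat5b fell by 1.11, 1.08 and 0.96, with no overlap between the groups for any of them. Against MEFs, J1 cells had 3 of the 6 higher, Stat4 by 1.90 and Stat2 by 0.93 among them (2 with housekeeping centring), and 3 lower, with Stat6 at -1.51, Stat5b at -0.56 and Stat5a at -0.39, where 38.0% of all genes were called. The Stat5a call in J1 was lost without MEF replicate 1 (0.0550) or J1 replicate 1 (0.0834) or 3 (0.111).

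**Figure D5:**
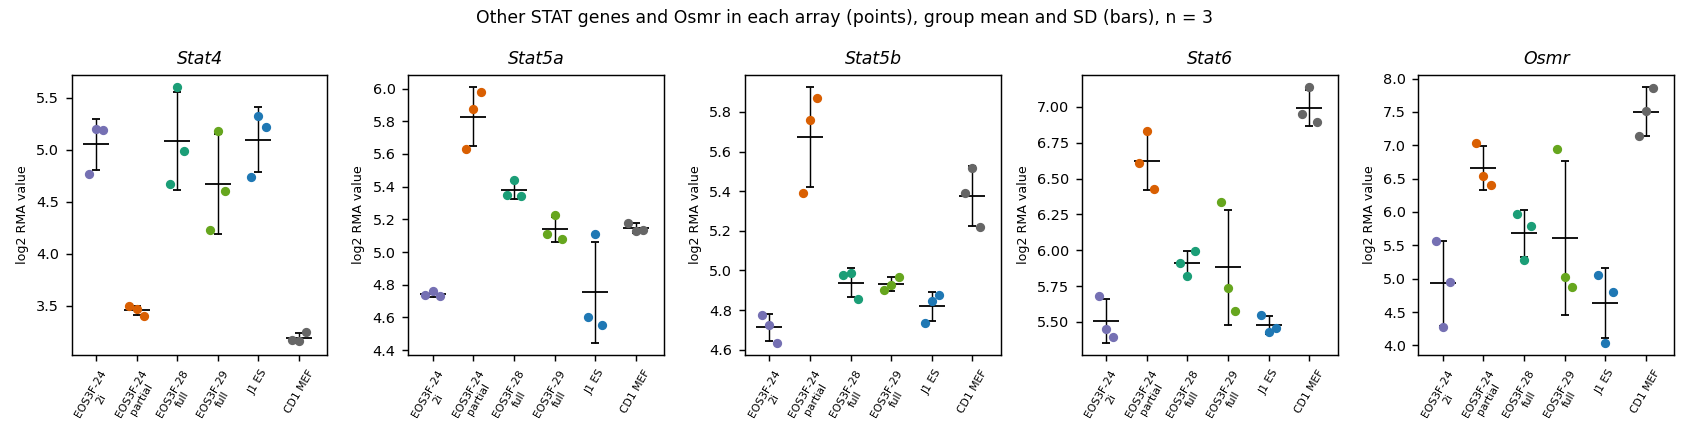
Log2 RMA value (vertical axis) of Stat4, Stat5a, Stat5b, Stat6 and Osmr in each array (points) by group (horizontal axis), with the group mean and SD as bars (n = 3). Stat4 lay at 3.41 to 3.50 in partial iPS cells and 3.16 to 3.25 in MEFs, below every array of the other groups.

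The inhibitors other than Socs3 were split. Of 15 SOCS, PIAS and phosphatase genes 3 were higher and 2 lower in 2i-converted than in partial iPS cells, against 22.4% of all genes called. With housekeeping centring 3 were higher and 4 lower, and with the replicate number as a block 4 were higher and 5 lower. Ptpn6, the phosphatase SHP-1, was higher by 1.49 (limma adjusted p = 2.74e-05), Pias2 by 0.85 and Ptpn2 by 0.71, and the last call was lost with the mean of its probe sets (0.0543). Socs6 and Cish, both of the SOCS family, fell by 1.28 and 0.82, and Socs1 differed by -0.06 (0.768). In J1 cells 5 were higher and 4 lower than in MEFs, against 38.0% of all genes called, with Ptpn6 higher by 1.57, Socs2 by 1.09 and Ptpn2 by 0.72, and Ptpn11, the phosphatase SHP2 that links gp130 to MAP kinase signalling, at -1.04.

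In the MAP kinase and PI3 kinase branch of the receptor, 1 of 11 genes was higher and 3 lower in 2i-converted than in partial iPS cells, against 22.4% of all genes called. Gab1, a docking protein of that branch, read 6.47, 6.74 and 6.78 in 2i-converted cells, against 4.66, 5.19 and 4.80 in partial iPS cells, and was 1.78 higher (limma adjusted p = 3.61e-07). Akt1, a kinase of the PI3 kinase branch, fell by 1.54 (0.000357), Sos2 by 0.79 and Pik3ca by 0.56, the last lost without 2i-converted replicate 2 (0.0597). In J1 cells 2 of the 11 were higher and 6 lower than in MEFs, or 1 and 6 with cyclic loess and 1 and 7 with housekeeping centring, against 38.0% of all genes called. Gab1 was higher by 3.09 (2.85e-10), and Akt1 and the PI3 kinase subunit gene Pik3r1 differed by -1.98 and -1.55. The adaptor Grb2 was 0.31 higher (0.0374), a call lost without MEF replicate 1 (0.0530) or 2 (0.191) or J1 replicate 1 (0.118) or 2 (0.103).

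Of 18 other genes that respond to STAT3, 6 were higher and 7 lower in 2i-converted than in partial iPS cells, against 22.4% of all genes called, with a list median of -0.42 against 0.00 over all genes. Tfcp2l1, a factor through which LIF sustains ES cells, read 6.94, 7.29 and 7.53 in 2i-converted cells, against 3.81, 3.90 and 3.92 in partial iPS cells. It was higher by 3.37 (limma adjusted p = 8.24e-11), and Nanog, Sall4 and Klf5, pluripotency factors, by 4.60, 1.99 and 1.63. Myc, a growth regulator and reprogramming gene outside the 3 factors named here, fell by 3.63 (3.77e-06), to 5.96, 4.17 and 4.59 in 2i-converted cells, against 8.08, 8.78 and 8.74 in partial iPS cells. Fos and Bcl3 fell by 1.18 and 1.05. Klf4, an introduced factor, differed by -0.21 (0.428), and whether its probe set also reads the retroviral copy was not tested.

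In J1 cells 9 of these 18 genes were higher and 5 lower than in MEFs, against 38.0% of all genes called. Nanog, Tfcp2l1 and Sall4 were higher by 5.67, 3.63 and 3.31, Klf5 by 2.05 and Klf4 by 1.02. Tnfrsf12a and Il4ra, receptors of the TNF and interleukin-4 systems, differed by -1.82 and -1.61. Myc differed by -1.29 (limma adjusted p = 0.0175), a call lost without MEF replicate 2 (0.0819) or J1 replicate 2 (0.104) or 3 (0.0556).

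Genes with the most similar pattern were taken by Pearson's r over the 6 group means, among up to 1328 genes with a mean of at least 6 and a range of group means of at least 1. They were Ppil1 (0.99), Polr2c (0.98) and Yes1 (0.97) for Socs3, Sod1 (0.97), Ppil1 (0.96) and H2ax (0.95) for Lifr, and Gclm (0.97), Znrd2 (0.97) and Ptges (0.95) for Lif. For Pim1 they were Fbxo22, Klf9 and Rps4l (each 0.99), for Pim3 Wdr5 (0.99), Cdc5l and Rfc5 (each 0.98), and for Gbx2 Castor1, Snora73b (each 0.98) and Ccl19 (0.97). The closest genes to Il6st, named after their values were seen, were the fibroblast genes Col6a1 (0.9997), Col5a2 (0.999) and Cav1 (0.999), of which Col5a2 is on the marker list. Likewise named afterwards were Lipa (0.998), Hmga2 (0.994) and Ptpn11 (0.993) for Jak1. For Jak2 they were Lrp1 (0.998), Itpripl2 (0.992) and B4galt1 (0.991), and for Stat3 Sptbn1 (0.991), Cbfb (0.985) and Gnb2 (0.984). The rule for naming such genes left out Il6st, Jak1, Jak2 and Stat3. Such values are high by construction, since the closest of many genes were taken over 6 points, and all groups share 1 normalization.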

How the data were processed

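Total RNA was measured on 18 arrays of 6 groups, 3 each, with group and number read from each sample's title. The authors deposited 1 log2 value per probe set and array, summarised with RMA per the submitters' processing notes. The sources used here do not give its version, the genome build or the annotation. RMA normalizes between arrays and compresses differences near background. Of 34760 probe sets, 21640 had 1 gene symbol in the platform annotation, 1321 several and 11799 were unlisted, leaving 19937 genes.

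Each gene was fitted with limma 3.58.1 (lmFit and eBayes, R 4.3.3) over all arrays, as a mean for each group, and 11 comparisons were tested as contrasts, with Benjamini-Hochberg adjustment over all genes and a threshold of 0.05. The fit was tested on simulated data with noise drawn independently for each array. Same-numbered arrays of these data deviated together, as given below, so that test does not cover the p-values under such pairing. The members and the 5 pathway and 5 marker lists were chosen with earlier results of these data known. Named from the lists were, per comparison, up to 3 called genes with the largest rise and up to 3 with the largest fall, and Tfcp2l1, Klf4, Klf5, Myc, Socs1, Osmr and Il6ra; their values are given for 2i-converted against partial iPS cells and for J1 cells against MEFs. Listed genes without a probe set of their own were not analysed here.

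Same-numbered arrays deviated together in every pair between 2i-converted and partial iPS (correlations 0.122 to 0.383) and between partial iPS and J1 (0.208 to 0.242). The same held between EOS3F-28 and EOS3F-29 (0.149 to 0.639) and between 2i-converted and J1 (0.150 to 0.563). These comparisons were taken as paired from the values alone, since the labels do not state a pairing. Same-numbered arrays also deviated together between partial iPS and EOS3F-29 (0.136 to 0.387). They did not between partial iPS and EOS3F-28 (-0.07 in 1 pair), so partial against full iPS was not taken as paired. Even so, the main fit had no term for the pairing, and its p-values do not take it into account. The replicate block entered the comparisons only as an alternative. Promoter windows came from the RefSeq table of GRCm38.p6. Alternatives were cyclic loess, housekeeping centring, a filter on dim genes, other probe set rules, trended robust eBayes, fits of the compared arrays with and without the replicate block, each full line alone and each array left out.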

Additional observations from a re-analysis of the deposited data

How the results depend on the processing

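No called difference of the 10 genes changed sign under any setting tried, and of 729 values for single genes under settings other than leaving out 1 array, 676 kept their side of the threshold, 19 lost a call and 34 gained it; with 1 array left out, 490 of 528 kept it, 29 lost it and 9 gained it. Of the named genes of the other lists, 13 of 471 and 15 of 318 values lost a call and none gained it. The values counted there are of differences called in the main fit, most of them named for their large changes. Their calls could therefore only be kept or lost. Counts of called genes among the 10 moved by over 1.5 times as follows; the cause was not tested unless named. With genes under a mean of 6 left out, only 5 of the 10 were tested, and 5 were called in full iPS, 5 in 2i-converted and 5 in J1 cells against MEFs, 4 in partial iPS against J1, 0 in 2i-converted against J1 and 1 in full iPS against J1. Partial iPS against MEFs had 5 called in a fit of only the arrays compared and 5 without the replicate 1 arrays of the feeder-grown groups, an alternative added, like the marker covariate, after the data were seen. Partial against full iPS had 1 with EOS3F-28 alone. The 2i-converted against full iPS count was 3 with cyclic loess, 3 with housekeeping centring, 0 with EOS3F-29 alone and 2 with the replicate block. With the replicate block 8 genes were called in 2i-converted against partial iPS, 4 in 2i-converted against J1 and 1 in EOS3F-28 against EOS3F-29, which also had 1 without the replicate 1 arrays. For the counts under alternative settings, here and above, the share of all genes called was not counted. A fit of only the arrays compared left 1 in 2i-converted against J1. With 1 array left out, the counts ran from 3 to 4, 8 to 10, 9 to 9 and 9 to 10 in partial iPS, full iPS, 2i-converted and J1 cells against MEFs, 4 to 5 in 2i-converted against partial iPS, 2 to 6 in partial against full iPS, 6 to 8 in partial iPS against J1, 0 to 3 in 2i-converted against full iPS, 1 to 2 in 2i-converted against J1, 2 to 4 in full iPS against J1 and 0 to 1 in EOS3F-28 against EOS3F-29. Housekeeping centring moved the median of all genes by -0.29 (2i-converted against MEFs), -0.22 (2i-converted against full iPS), -0.21 (2i-converted against J1), -0.17 (partial iPS against MEFs), -0.11 (2i-converted against partial iPS) and -0.11 (partial against full iPS). By group, the 8 housekeeping genes averaged from 7.85 in MEFs to 8.13 in 2i-converted cells. In partial iPS, full iPS, 2i-converted and J1 cells against MEFs the replicate numbers share only a number, and the block is given here as an alternative alone.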
